A study of Mus musculus with 8 samples.

Results

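Transcripts of 42 genes for collagens, laminins and other matrix proteins of the meninges and vessels were followed in the cortex of newborn mice. The genes were chosen by symbol from the 53392 genes in the deposited quantification files, and all 42 were found. They were divided by where their products are laid down into 21 basement membrane genes and 21 genes of fibrillar and interstitial matrix. The first group holds type IV collagens, laminins, nidogens, perlecan, agrin and collagens XV and XVIII, and the second holds fibril-forming and type VI collagens, fibril-associated collagens, elastic fibre proteins, small proteoglycans, fibronectin, periostin and Sparc. Messenger RNA was sequenced from 4 cortices with the R342X mutation in Phf6, an X-linked gene whose nuclear protein carries extended PHD fingers, and from 4 wild-type cortices. Both groups were of the FVB/N strain at postnatal day 0. R342X puts a stop codon in place of an arginine codon. The labels give no zygosity, sex, litter, animal or batch, so p-values measure the spread between these 8 samples, which may in part be technical.

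Basement membranes are thin sheets of matrix under endothelium, around pericytes and beneath the pia. Laminins assemble from an alpha, a beta and a gamma chain and form the first layer, type IV collagen forms a second network, and nidogens, perlecan and agrin tie the layers together. At the surface of the cortex this sheet anchors the endfeet of radial glia, and defects in it let neurons migrate into the meninges. Fibril-forming collagens, with the proteins that bind and space their fibrils, are made mainly by fibroblasts of the meninges and by mural cells of larger vessels.

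In this bulk tissue, fewer cells of a type and less RNA per cell cannot be told apart. Libraries held between 30469745 and 39453169 estimated reads in mutants and between 48841467 and 74266937 in wild type. Phf6 itself ran from 39.3 to 43.6 CPM (counts scaled to library size) in mutants, against 72.1 to 91.9 CPM in wild type (edgeR log2 fold change -0.90, Benjamini-Hochberg adjusted p = 0.00226). The first principal component of all genes, with 35.3% of the variance, put mutant replicates 1 to 3 and wild-type replicate 1 on one side (set 1) and mutant replicate 4 and wild-type replicates 2 to 4 on the other (set 2). Results for the matrix genes are therefore given from a fit on genotype alone and from one that holds the set beside genotype, called the set-adjusted fit. There each set has 1 library of a genotype against 3 of the other, so mutant replicate 4 and wild-type replicate 1 carry much of the weight. Where either is left out, the other alone stands for its genotype and is assumed to vary like the other libraries. The cortical label was checked with 12 markers of cortical neurons and progenitors, whose TPM (abundances scaled by transcript length and library size) summed to 1341 to 1449 in mutants and 1488 to 1587 in wild type. None of these 12 markers was at 0.

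On genotype alone, none of the 42 genes passed the threshold of an adjusted p of 0.05, and 4 of 20097 tested genes (0.0199%) did. At an unadjusted p under 0.05, 1 matrix gene (Eln, for elastin) was higher in mutants and 0 were lower, against 6.89% and 6.84% of all genes tested. DESeq2 and limma-voom also called 0 of the 42, though DESeq2 called 401 of the 20097 genes tested and limma-voom 4. The log2 fold change, mutant over wild type, lay above 0 for 30 of the 42 genes, against 50.3% of all genes tested. In the set-adjusted fit, 3 genes rose in mutants: Col4a1, Col4a5 and Eln. In that fit, 0.239% of all genes tested were called higher and 0.363% lower, and no matrix gene was called lower. At an unadjusted p under 0.05, 26 of the 42 were higher and 0 were lower, against 6.48% and 7.21% of all genes tested. The log2 fold change was above 0 for 36 of the 42, against 48.5% of all genes.

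These 3 calls did not hold under every setting. The set-adjusted fit called 0 matrix genes without mutant replicate 2, 0 without mutant replicate 4, 1 without mutant replicate 1 and 1 without mutant replicate 3. It called 2 without wild-type replicate 1 (Lama4 and Fn1, neither of them among the 3), 2 without wild-type replicate 3, 3 without wild-type replicate 4 and 4 without wild-type replicate 2. When only protein-coding transcripts were summed, an alternative chosen after the data were seen, it called 0. Calls over all genes in that fit, 121 with every library, numbered 26 with protein-coding transcripts only and 16 (without mutant replicate 2) to 126 (without wild-type replicate 4) when single libraries were left out. DESeq2 with set and genotype as terms called 14 matrix genes higher and 0 lower, among 497 genes called in all. Those 497 were 1.36% of all genes tested called higher and 1.11% called lower.

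Basement membrane and fibrillar genes gave similar medians. On genotype alone the median log2 fold change was 0.06 for basement membrane genes (14 of 21 above 0) and 0.07 for fibrillar and interstitial genes (16 of 21), against 0.0014 over all genes tested. Without mutant replicate 4 both medians lay below 0, at -0.06 for basement membrane and -0.05 for fibrillar and interstitial genes. The set-adjusted medians were 0.21 for basement membrane genes (17 of 21 above 0) and 0.27 for fibrillar and interstitial genes (19 of 21), against -0.004 over all genes. Each class had 13 genes with an unadjusted p under 0.05 in that fit. The difference of the class medians, basement membrane minus fibrillar, was -0.0017 on genotype alone and -0.06 in the set-adjusted fit.

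The differences were larger in set 2. Within set 1, where mutant replicates 1 to 3 stand against wild-type replicate 1, the median log2 difference was 0.06 for basement membrane genes (11 of 21 above 0) and 0.11 for fibrillar and interstitial genes (16 of 21). Over all genes tested it was -0.0026 there, with 9919 of 20097 above 0. Within set 2, where mutant replicate 4 stands against wild-type replicates 2 to 4, it was 0.36 for basement membrane genes (20 of 21 above 0) and 0.42 for fibrillar and interstitial genes (21 of 21). Over all genes tested it was -0.0086 in set 2, with 9579 of 20097 above 0. Both sets gave a higher value in mutants for 27 of the 42 genes, 11 of basement membrane and 16 of fibrillar and interstitial matrix, against 26.4% of all genes. One side of each of these differences is a single library, so none carries a test.

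Mutant replicate 4 was the highest of the 8 libraries for 36 of the 42 genes, 18 in each class, whereas it was the highest for 14.1% of all genes tested. Wild-type replicate 1 was the lowest library for 8 basement membrane and 10 fibrillar and interstitial genes, and mutant replicate 3 for 5 and 6. How often each library was the lowest over all genes was not counted, so these counts have no background. No matrix gene had every mutant library above every wild-type library, a pattern that 2.95% of all genes tested showed. Summed over the 21 basement membrane genes, mutant replicates 1 to 4 held 622, 667, 594 and 783 TPM, against 603, 601, 652 and 641 TPM in wild-type replicates 1 to 4. Mean sums were 666 ± 83.3 TPM in mutants, against 625 ± 25.9 TPM in wild type (n = 4 each, ± SD), and the mutant mean without replicate 4 was 627 ± 37.0 TPM. Over the 21 fibrillar and interstitial genes the sums were 683, 689.9, 603 and 877 TPM in mutants, against 611, 613, 674 and 688 TPM in wild type. These averaged 713 ± 116 TPM in mutants, against 647 ± 40.4 TPM in wild type (n = 4 each, ± SD), with 659 ± 48.1 TPM in mutants without replicate 4. In both classes mutant replicate 4 stood above all other libraries. Mutant replicate 2 was above the highest wild-type library by a small margin, and mutant replicates 1 and 3 were not. The ratio of summed basement membrane to summed fibrillar TPM stood at 0.938 ± 0.044 in mutants, against 0.967 ± 0.0252 in wild type (n = 4 each, ± SD).

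**Figure D1:**
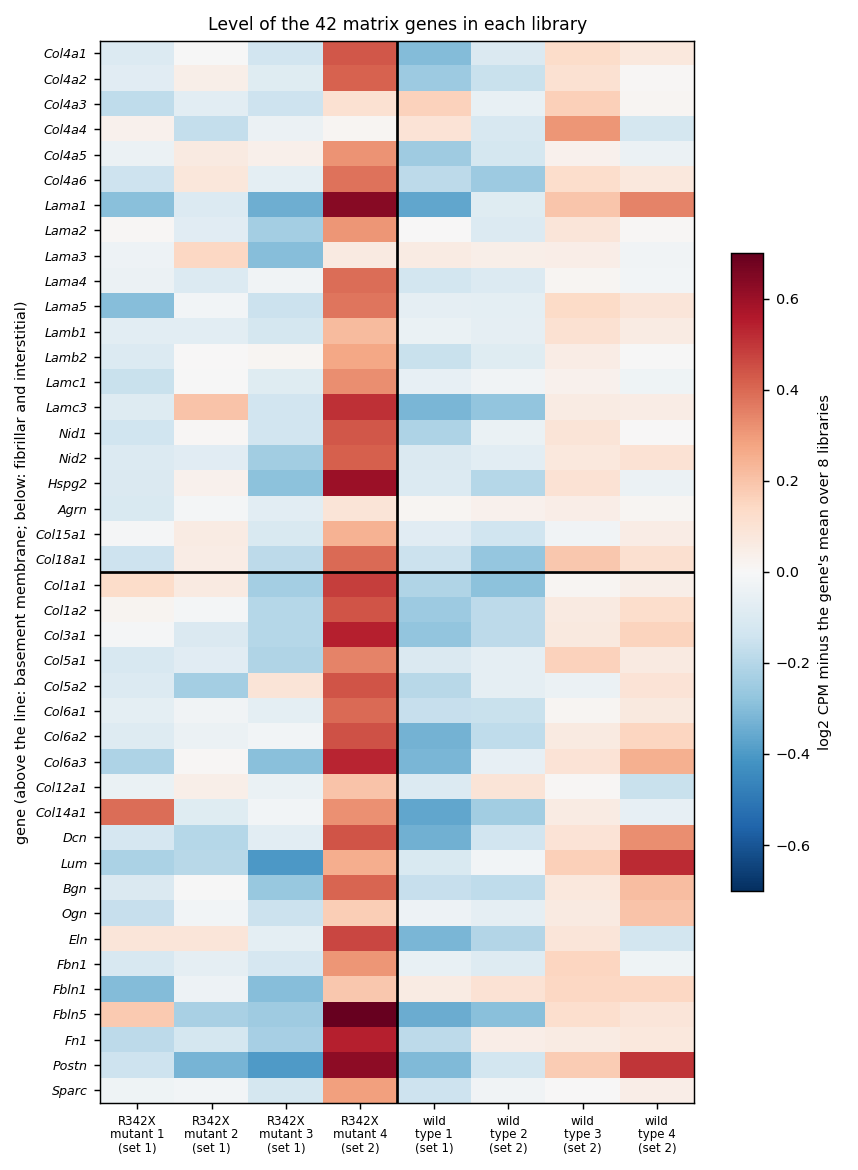
Level of the 42 matrix genes in each library, as log2 CPM minus the gene's mean over the 8 libraries (red: above the mean; blue: below), with R342X mutants left of the vertical line and wild type right of it. Basement membrane genes are above the horizontal line, and the column of mutant replicate 4 holds the highest value for 36 of the 42 genes.

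**Figure D2:**
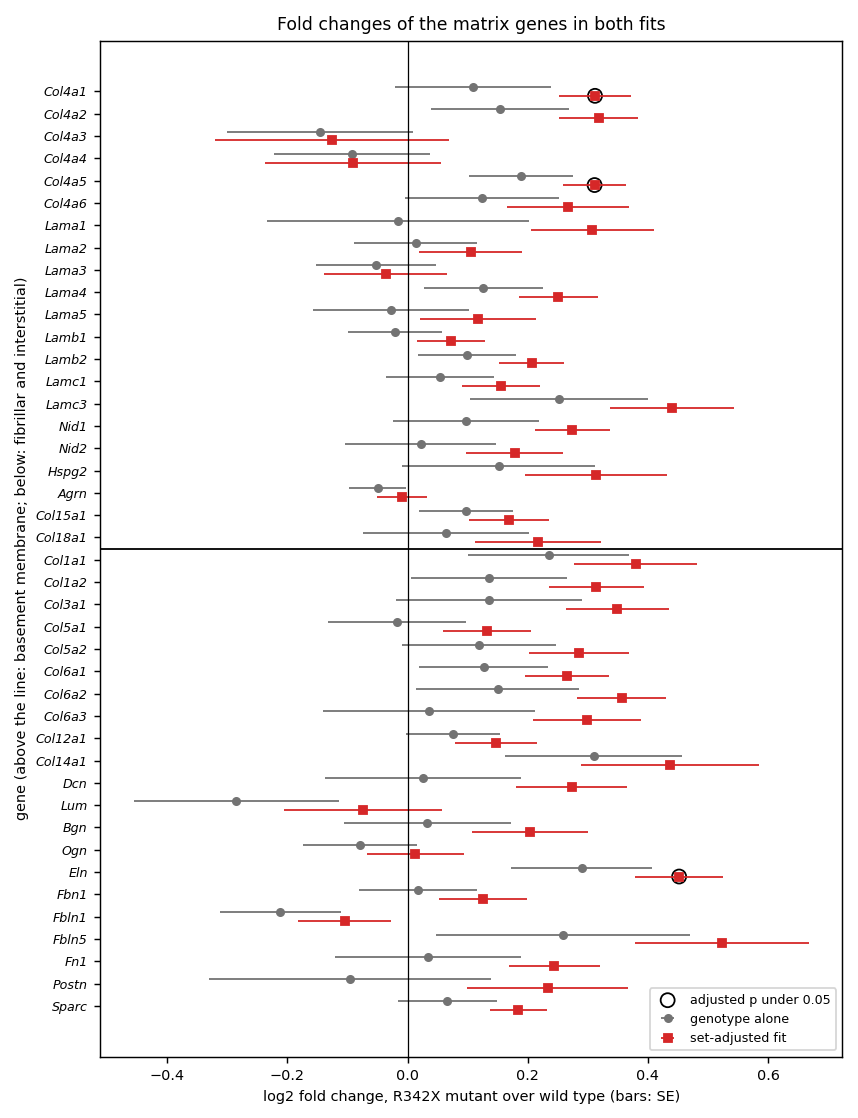
Log2 fold change of each matrix gene, R342X mutant over wild type, with its SE, from the fit on genotype alone (grey circles) and the set-adjusted fit (red squares). Open circles mark the 3 genes with an adjusted p under 0.05, Col4a1, Col4a5 and Eln, all in the set-adjusted fit, where 36 of the 42 values lie above 0.

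Type IV collagen is the network-forming collagen of every basement membrane. Its commonest form is built from the alpha1 and alpha2 chains of Col4a1 and Col4a2, and the alpha3 to alpha6 chains form more specialised networks. Col4a1 and Col4a2 are divergent neighbours on chromosome 8 in GRCm38 (Col4a1 on the minus strand, chr8:11198423-11312826; Col4a2 on the plus strand, chr8:11312805-11449287), and their annotated bodies overlap by 22 bases at the 5' ends. Col4a5 (chrX:141475385-141689234, plus strand) and Col4a6 (chrX:141165403-141474076, minus strand) form another divergent pair on chromosome X, with no shared bases. So do Col4a3 (chr1:82586921-82722059, plus strand) and Col4a4 (chr1:82448423-82586849, minus strand) on chromosome 1, neither of which was called. Windows from 250 bases before to 50 bases after the RefSeq start site (GRCm38.p6) are printed for Col4a1, Col4a2, Col4a5 and Col4a6. These 4 genes were taken because each of their pairs holds a called gene, Col4a1 or Col4a5. Each is given 5' to 3' on the gene's own strand, and capitals mark every GC box (GGGCGG) and CCAAT box (CCAAT) on either strand, so that CCGCCC and ATTGG are the same letters read on the other strand.
Col4a1 (chr8:11312777-11313076, minus strand): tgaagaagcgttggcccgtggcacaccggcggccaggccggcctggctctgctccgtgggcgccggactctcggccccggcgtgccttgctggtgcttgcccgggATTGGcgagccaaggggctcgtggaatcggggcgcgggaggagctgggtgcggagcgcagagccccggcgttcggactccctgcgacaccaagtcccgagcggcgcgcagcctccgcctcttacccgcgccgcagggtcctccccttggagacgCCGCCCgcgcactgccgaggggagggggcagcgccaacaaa
Col4a2 (chr8:11312555-11312854, plus strand): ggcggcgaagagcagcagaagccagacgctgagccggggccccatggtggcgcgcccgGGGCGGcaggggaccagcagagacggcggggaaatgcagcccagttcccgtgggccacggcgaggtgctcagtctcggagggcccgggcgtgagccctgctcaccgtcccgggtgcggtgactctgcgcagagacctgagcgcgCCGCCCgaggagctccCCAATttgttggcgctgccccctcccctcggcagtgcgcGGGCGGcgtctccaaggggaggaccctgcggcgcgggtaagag
Col4a5 (chrX:141475169-141475468, plus strand): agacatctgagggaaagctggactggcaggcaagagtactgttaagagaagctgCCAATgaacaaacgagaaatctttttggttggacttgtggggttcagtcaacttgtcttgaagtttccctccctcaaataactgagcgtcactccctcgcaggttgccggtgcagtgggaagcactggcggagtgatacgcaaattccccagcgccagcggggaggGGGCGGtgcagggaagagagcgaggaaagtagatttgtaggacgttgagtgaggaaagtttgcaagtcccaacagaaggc
Col4a6 (chrX:141474027-141474326, minus strand): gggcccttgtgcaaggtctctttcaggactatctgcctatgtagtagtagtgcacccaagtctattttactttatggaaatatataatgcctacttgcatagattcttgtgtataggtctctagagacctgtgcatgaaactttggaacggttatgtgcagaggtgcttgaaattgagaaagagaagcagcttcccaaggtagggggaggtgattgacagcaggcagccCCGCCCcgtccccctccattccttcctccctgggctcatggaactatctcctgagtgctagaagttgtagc
The Col4a1 and Col4a2 windows overlap by 78 bases, with start sites 21 bases apart, so the last bases of each are the reverse complement of the other's. The start sites of Col4a5 and Col4a6 lie 1343 bases apart and their windows share 0 bases. Col4a1 holds 1 GC box, Col4a2 holds 3, and Col4a5 and Col4a6 hold 1 each. None of the 4 holds a TATA box (TATAAA).

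Col4a1 was the second most abundant basement membrane transcript. It was measured at 341, 364.5, 332 and 493 CPM in mutant replicates 1 to 4, against 296, 340.2, 399 and 384 CPM in wild-type replicates 1 to 4. Replicate 4 was the only mutant library above all wild-type libraries, and wild-type replicate 1 was below all mutants. On genotype alone the log2 fold change was 0.11 ± 0.13 (SE; edgeR adjusted p = 0.708). Adjusted for the set it was 0.31 ± 0.06 (SE; edgeR adjusted p = 0.0398), with values of 0.23 within set 1 and 0.40 within set 2. Under that fit's alternatives the adjusted p ran between 6.97e-05 (DESeq2) and 0.298 (without mutant replicate 4), and of the 8 fits that left out a library only the one without wild-type replicate 2 kept it under the threshold. Summing only protein-coding transcripts gave an adjusted p of 0.0695.

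Col4a2 followed Col4a1 from library to library. It was at 239.6, 260.3, 239 and 337 CPM in mutants, against 212, 227, 273 and 254 CPM in wild type. Mutant replicate 4 again stood alone at the top, and the other 3 mutant libraries lay within the wild-type range. The log2 fold change was 0.15 ± 0.11 on genotype alone (SE; edgeR adjusted p = 0.540) and 0.32 ± 0.07 in the set-adjusted fit (SE; edgeR adjusted p = 0.0510), which narrowly missed the threshold. The ratio of Col4a1 to Col4a2 TPM stood at 1.40 ± 0.07 in mutants, against 1.45 ± 0.03 in wild type (n = 4 each, ± SD). Whether strand was used in counting is not given in the sources used here, so reads from the 22 overlapping bases could belong to either gene.

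Col4a5 encodes the alpha5 chain, which joins networks with alpha3 and alpha4 or with alpha6. It was at 31.8, 34.2, 33.5 and 40.6 CPM in mutants, against 27.5, 30.01, 33.4 and 31.8 CPM in wild type. Wild-type replicates 3 and 4 reached into the mutant range and the other 2 wild-type libraries lay below it. The fold change on the log2 scale was 0.19 ± 0.09 on genotype alone (SE; edgeR adjusted p = 0.369) and 0.31 ± 0.05 in the set-adjusted fit (SE; edgeR adjusted p = 0.0305), with 0.27 within set 1 and 0.36 within set 2. The alternatives to that fit gave adjusted p-values between 0.000428 (DESeq2) and 0.195 (without mutant replicate 4). The threshold was missed without mutant replicate 2, 3 or 4, without wild-type replicate 1, and with protein-coding transcripts only (0.0608).

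Col4a6, its neighbour, was at 12.8, 14.9, 13.5 and 18.4 CPM in mutants, against 12.4, 11.8, 15.4 and 14.9 CPM in wild type. Apart from mutant replicate 4, the groups overlapped. The log2 fold change was 0.12 ± 0.13 on genotype alone (SE; edgeR adjusted p = 0.660) and 0.27 ± 0.10 in the set-adjusted fit (SE; edgeR adjusted p = 0.263). Col4a3 and Col4a4, the alpha3 and alpha4 chains, were near the floor of the data at 0.17 ± 0.013 and 0.490 ± 0.027 TPM in mutants, against 0.247 ± 0.113 and 0.501 ± 0.084 TPM in wild type (n = 4 each, ± SD). They are the 2 type IV collagens whose log2 fold changes were below 0 in both fits, at -0.13 for Col4a3 and -0.09 for Col4a4 in the set-adjusted fit, and neither passed the test.

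**Figure D3:**
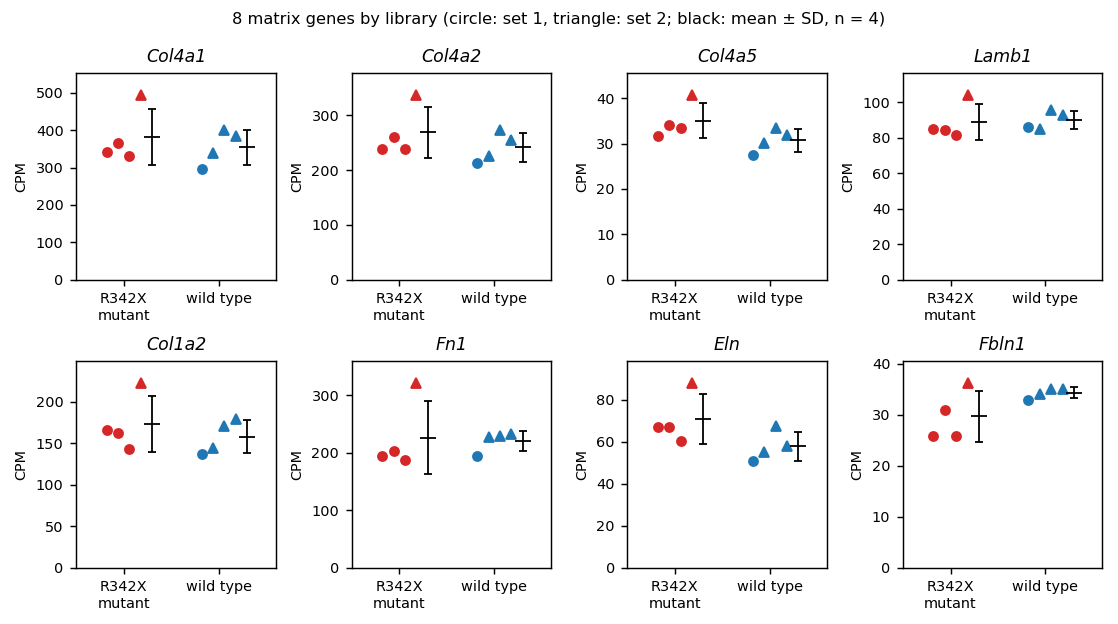
CPM of 8 matrix genes in each library, R342X mutants in red on the left and wild type in blue on the right of each panel, with circles for set 1, triangles for set 2 and the mean ± SD (n = 4) in black. The red triangle is mutant replicate 4, the highest library in all 8 panels, and for Col4a1, Col4a5 and Eln the blue circle (wild-type replicate 1) is the lowest point.

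Laminins are the trimers that start a basement membrane. By TPM, Lamb1 and Lamc1, the beta1 and gamma1 chains shared by most laminins, were the most abundant chains. Lamb1 was at 84.7, 84.7, 81.7 and 104.0 CPM in mutants, against 86.3, 85.2, 96.0 and 92.7 CPM in wild type. Mutant replicates 1 to 3 lay below all wild-type libraries and replicate 4 above all of them. Relative to wild type, its log2 fold change was -0.02 ± 0.08 on genotype alone (SE; edgeR adjusted p = 0.914) and 0.07 ± 0.06 in the set-adjusted fit (SE; edgeR adjusted p = 0.630), so its sign differed between the fits. Lamc1 was at 92.8, 103, 97.6 and 129 CPM in mutants, against 99.3, 102, 105 and 101 CPM in wild type. Mutant replicates 1 and 3 were below all wild-type libraries and replicate 4 was above all of them. Its log2 fold change was 0.05 ± 0.09 on genotype alone (SE; edgeR adjusted p = 0.794) and 0.16 ± 0.06 in the set-adjusted fit (SE; edgeR adjusted p = 0.312). Without mutant replicate 4 the sign of Lamc1 turned in both fits, to -0.06 and -0.02.

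Lama4, the alpha4 chain typical of vessel walls, was at 35.1, 33.8, 35.5 and 47.3 CPM in mutants, against 33.1, 33.8, 36.4 and 35.6 CPM in wild type. Mutant replicate 4 was the one library that stood apart. The log2 fold change was 0.13 ± 0.10 on genotype alone (SE; edgeR adjusted p = 0.563) and 0.25 ± 0.07 in the set-adjusted fit (SE; edgeR adjusted p = 0.105). Without wild-type replicate 1, set 2 alone compares the genotypes there and mutant replicate 4 alone stands for the mutants. Lama4 then passed at an edgeR adjusted p of 0.0327, within a range of 0.0327 to 0.707 when single libraries were left out. Lamc3, the gamma3 chain, was at 16.8, 20.53, 16.3 and 25.5 CPM in mutants, against 14.3, 14.8, 18.6 and 18.6 CPM in wild type, and 2 mutant libraries were above all wild-type libraries. It had the largest difference of the basement membrane genes in both fits, with log2 fold changes of 0.25 ± 0.15 on genotype alone (SE; edgeR adjusted p = 0.454) and 0.44 ± 0.10 in the set-adjusted fit (SE; edgeR adjusted p = 0.0754).

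The remaining laminin chains showed no call in either fit. Lama1, a chain of the pial basement membrane, had the widest spread of the laminins, at 9.55 ± 4.92 TPM in mutants, against 9.65 ± 3.25 TPM in wild type (n = 4 each, ± SD). Lama2 averaged 8.81 ± 1.28 TPM in mutants, against 8.77 ± 0.554 TPM in wild type, Lama3 averaged 2.05 ± 0.309 and 2.00 ± 0.043 TPM, and Lama5 averaged 2.27 ± 0.430 and 2.21 ± 0.124 TPM in mutants and wild type (n = 4 each, ± SD). Lamb2, the beta2 chain that replaces beta1 in some basement membranes, averaged 18.4 ± 2.02 TPM in mutants, against 16.5 ± 0.964 TPM in wild type. The ratio of Lamb1 to Lamb2 TPM stood at 1.77 ± 0.19 in mutants, against 1.92 ± 0.19 in wild type (n = 4 each, ± SD). Over the 5 alpha chains the median log2 fold change was -0.02 on genotype alone and 0.12 in the set-adjusted fit, and over the 4 beta and gamma chains 0.08 and 0.18.

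Agrn, for agrin, a heparan sulfate proteoglycan that neurons and glia also make, was the most abundant basement membrane transcript by TPM. It was at 629.7, 673, 644 and 723 CPM in mutants, against 686, 694, 701 and 684 CPM in wild type. The wild-type libraries lay within a narrow band that fell inside the range of the mutants. The fold change on the log2 scale was -0.05 ± 0.05 on genotype alone (SE; edgeR adjusted p = 0.630) and -0.01 ± 0.04 in the set-adjusted fit (SE; edgeR adjusted p = 0.956). Retained-intron transcripts held 46.1% ± 1.18 of Agrn TPM in mutants, against 47.1% ± 3.41 in wild type (n = 4 each, ± SD). Agrn, Col4a1 and Col4a2 together made 63.8% of basement membrane TPM.

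The nidogens and perlecan, which link the laminin and collagen networks, were higher in mutant replicate 4 than in any other library. Nid1 averaged 26.9 ± 4.94 TPM in mutants, against 23.7 ± 1.58 TPM in wild type, and Nid2 averaged 25.2 ± 4.76 TPM in mutants, against 23.8 ± 1.40 TPM in wild type (n = 4 each, ± SD). Hspg2, for perlecan, averaged 17.4 ± 3.95 TPM in mutants, against 14.8 ± 1.68 TPM in wild type, with log2 differences of -0.02 within set 1 and 0.64 within set 2. Collagens XV and XVIII, which join the sheet to the tissue around it, averaged 14.6 ± 3.58 TPM (Col15a1) and 18.1 ± 3.54 TPM (Col18a1) in mutants, against 14.4 ± 0.865 and 16.6 ± 2.14 TPM in wild type (n = 4 each, ± SD). None of these 5 genes passed the test in either fit.

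Fibril-forming collagens I, III and V give connective tissue its tensile strength. Col1a1 and Col1a2 encode the chains of type I collagen and Col3a1 that of type III. Col1a2 was at 166, 162.5, 143 and 222 CPM in mutants, against 137, 144, 171 and 179 CPM in wild type. Mutant replicate 4 was above every other library, and mutant replicates 1 to 3 overlapped wild type. Relative to wild type, its log2 fold change was 0.14 ± 0.13 on genotype alone (SE; edgeR adjusted p = 0.634) and 0.31 ± 0.08 in the set-adjusted fit (SE; edgeR adjusted p = 0.0964). Without mutant replicate 4 the value on genotype alone was -0.0062. The window around the RefSeq start of Col1a2 (chr6:4505368-4505667, plus strand, GRCm38.p6) is shown beside the type IV windows as the promoter of a fibrillar gene with a fold change of like size, with capitals as above.
Col1a2 (chr6:4505368-4505667, plus strand): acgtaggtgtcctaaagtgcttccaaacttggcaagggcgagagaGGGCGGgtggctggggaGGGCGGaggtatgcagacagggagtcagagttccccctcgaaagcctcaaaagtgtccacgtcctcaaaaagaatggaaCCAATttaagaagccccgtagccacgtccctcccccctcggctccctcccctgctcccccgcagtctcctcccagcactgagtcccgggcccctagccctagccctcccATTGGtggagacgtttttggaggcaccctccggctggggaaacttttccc
It holds 2 GC boxes, 2 CCAAT boxes and no TATA box. The GENCODE start of Col1a2 (chr6:4504814) lies outside this window, so these counts hold for the bases around the RefSeq start only.

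Col1a1 was at 119.9, 114, 92.8 and 153 CPM in mutants, against 94.7, 89.9, 111 and 113 CPM in wild type. Mutant replicates 1, 2 and 4 were above all wild-type libraries and mutant replicate 3 lay among them. The log2 fold change was 0.23 ± 0.13 on genotype alone (SE; edgeR adjusted p = 0.446) and 0.38 ± 0.10 in the set-adjusted fit (SE; edgeR adjusted p = 0.116). Col3a1 was at 145, 136, 127 and 213 CPM in mutants, against 121, 129, 153 and 163 CPM in wild type, with log2 fold changes of 0.14 ± 0.15 on genotype alone (SE; edgeR adjusted p = 0.694) and 0.35 ± 0.09 in the set-adjusted fit (SE; edgeR adjusted p = 0.0885). Mutant replicate 4 alone lay above the wild-type range of Col3a1, and without it the value on genotype alone was -0.05. The ratio of Col1a1 to Col1a2 TPM stood at 0.634 ± 0.027 in mutants, against 0.589 ± 0.028 in wild type (n = 4 each, ± SD), and the groups overlapped. Col5a1 and Col5a2, the type V chains that start fibrils, averaged 8.46 ± 1.41 and 12.6 ± 2.36 TPM in mutants, against 8.20 ± 0.546 and 11.1 ± 0.503 TPM in wild type (n = 4 each, ± SD).

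Type VI collagen forms beaded filaments around cells. Col6a1, Col6a2 and Col6a3 had log2 fold changes of 0.27, 0.36 and 0.30 in the set-adjusted fit, where Col6a2 came nearest to a call (edgeR adjusted p = 0.0531). Col6a2 was at 27.9, 28.9, 29.3 and 40.5 CPM in mutants, against 23.6, 26.3, 31.1 and 33.0 CPM in wild type, so all but mutant replicate 4 lay within the wild-type range. Col6a2 passed in that fit without wild-type replicate 2 and without wild-type replicate 4. Of the fibril-associated collagens, Col12a1 averaged 7.21 ± 0.545 TPM in mutants, against 5.98 ± 0.201 TPM in wild type, while in CPM, which is not scaled by length, it averaged 22.3 ± 1.84 and 21.2 ± 1.63 (n = 4 each, ± SD). A short transcript, Col12a1-204 of 1784 bases, held 49.95% ± 4.25 of Col12a1 TPM in mutants, against 43.2% ± 4.22 in wild type. Col14a1 was low, at 4.04, 2.90, 3.03 and 3.84 CPM in mutants, against 2.39, 2.59, 3.19 and 2.95 CPM in wild type. Its mutant replicates 1 and 4 were above all wild-type libraries, and its log2 fold change was 0.31 ± 0.15 on genotype alone (SE; edgeR adjusted p = 0.382) and 0.44 ± 0.15 in the set-adjusted fit (SE; edgeR adjusted p = 0.203).

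Eln encodes elastin, the elastic core protein of artery walls. It was at 67.3, 67.3, 60.6 and 88.0 CPM in mutants, against 50.9, 55.0, 67.5 and 58.1 CPM in wild type. All 4 mutant libraries were above 3 of the 4 wild-type libraries, and wild-type replicate 3 lay inside the mutant range. Its log2 fold change was 0.29 ± 0.12 on genotype alone, with the smallest unadjusted p of the 42 genes (SE; edgeR quasi-likelihood p of 0.0321, adjusted p of 0.33). Adjusted for the set it was 0.45 ± 0.07 (SE; edgeR adjusted p = 0.0258), with 0.35 within set 1 and 0.55 within set 2. The alternatives to that fit gave adjusted p-values between 8.85e-07 (DESeq2) and 0.197 (without mutant replicate 4), and the threshold was also missed without mutant replicate 1 or 2 and without wild-type replicate 1. With protein-coding transcripts only, the log2 fold change was 0.38 and the adjusted p 0.137. A transcript annotated for nonsense-mediated decay, Eln-203, held 17.6% ± 3.03 of Eln TPM in mutants, against 12.9% ± 7.68 in wild type (n = 4 each, ± SD).

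The other elastic fibre genes did not share one direction. Fbln1, for fibulin-1, was at 25.8, 31.0, 25.9 and 36.2 CPM in mutants, against 33.0, 34.1, 35.1 and 35.2 CPM in wild type. Mutant replicates 1 to 3 were below every wild-type library and mutant replicate 4 was above every one. The fold change on the log2 scale was -0.21 ± 0.10 on genotype alone (SE; edgeR adjusted p = 0.382) and -0.10 ± 0.08 in the set-adjusted fit (SE; edgeR adjusted p = 0.604). Without mutant replicate 4 it was called lower on genotype alone (log2 fold change -0.32, edgeR adjusted p = 0.0457), among 699 genes called in that fit. The adjusted p on genotype alone ran from 0.0457 to 0.677 as single libraries were left out. Fbln5, for fibulin-5, which is needed for elastic fibre assembly, averaged 6.62 ± 2.01 TPM in mutants, against 5.17 ± 0.587 TPM in wild type. Fbn1, for fibrillin-1, averaged 8.79 ± 1.15 TPM in mutants, against 8.33 ± 0.679 TPM in wild type (n = 4 each, ± SD).

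Sparc, a collagen-binding protein also made by vessels and glia, was the most abundant gene of its class. It was at 236, 238, 222 and 294 CPM in mutants, against 218, 237, 242 and 249 CPM in wild type. Again only mutant replicate 4 lay outside the wild-type range, and the log2 fold change was 0.07 ± 0.08 on genotype alone (SE; edgeR adjusted p = 0.720) and 0.18 ± 0.05 in the set-adjusted fit (SE; edgeR adjusted p = 0.1000). Fn1, for fibronectin, the adhesive glycoprotein on which collagen fibrils assemble, was at 194, 203, 187 and 321 CPM in mutants, against 194, 228, 229 and 232 CPM in wild type. Mutant replicate 4 exceeded every other library, while the other 3 mutants were below wild-type replicates 2 to 4 and close to wild-type replicate 1. Relative to wild type, its log2 fold change was 0.03 ± 0.15 on genotype alone (SE; edgeR adjusted p = 0.929) and -0.18 without mutant replicate 4. In the set-adjusted fit it was 0.24 ± 0.08 (SE; edgeR adjusted p = 0.170), and the within-set values were 0.0012 in set 1 and 0.48 in set 2. Leaving out single libraries moved its adjusted p in that fit between 0.0035, without wild-type replicate 1, where mutant replicate 4 alone stands for the mutants, and 0.994. Retained-intron transcripts held 49.9% ± 7.14 of Fn1 TPM in mutants, against 49.6% ± 4.35 in wild type (n = 4 each, ± SD).

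The small leucine-rich proteoglycans coat collagen fibrils and limit their width. Dcn averaged 33.7 ± 6.39 TPM in mutants, against 31.3 ± 4.99 TPM in wild type, and Bgn averaged 31.9 ± 6.12 TPM in mutants, against 29.8 ± 3.25 TPM in wild type (n = 4 each, ± SD). Lum averaged 4.76 ± 0.8998 TPM in mutants, against 5.51 ± 0.908 TPM in wild type, and Ogn averaged 10.5 ± 1.04 TPM in mutants, against 10.5 ± 0.796 TPM in wild type. Postn, for periostin, averaged 12.3 ± 4.62 TPM in mutants, against 13.1 ± 2.26 TPM in wild type (n = 4 each, ± SD). None passed the test in either fit, and Postn differed in sign between the fits, at a log2 fold change of -0.10 on genotype alone and 0.23 in the set-adjusted fit. So did Ogn, Col5a1, Lama1, Lama5 and Lamb1, all below 0 on genotype alone.

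Grouped by family, the median log2 fold change in the set-adjusted fit was highest in fibril-forming collagens (0.31, 5 of 5 genes above 0) and in type VI collagen (0.30, 3 of 3). It was 0.29 in type IV collagen (4 of 6), 0.29 in the elastic fibre genes (3 of 4), 0.29 in the fibril-associated collagens (2 of 2), 0.23 in the nidogen, perlecan and agrin group (3 of 4), 0.23 for fibronectin, periostin and Sparc (3 of 3), and 0.19 in collagens XV and XVIII (2 of 2). Laminin beta and gamma chains stood at 0.18 (4 of 4), laminin alpha chains at 0.12 (4 of 5) and small proteoglycans at 0.11 (3 of 4). On genotype alone all 11 family medians lay between -0.03 and 0.19. The families were not tested against each other.

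The authors' deposited table lists 41 of the 42 genes with an adjusted p. Of those, 14 pass in the authors' deposited table as higher in mutants (5 of 20 basement membrane and 9 of 21 fibrillar and interstitial genes) and 0 as lower, against 1.46% and 1.32% of all genes listed with an adjusted p there. How the table was filtered and modelled, and whether its fold changes were shrunk, is not given in the sources used here, so their sizes cannot be set against those above. The 14 are Col4a1, Col4a2, Col4a5, Nid1, Hspg2, Col1a2, Col3a1, Col6a1, Col6a2, Col12a1, Fn1, Fbln5, Sparc and Eln. The authors' deposited table gives log2 fold changes of 0.47 ± 0.08 for Eln (SE; adjusted p = 1.79e-07), 0.32 ± 0.07 for Col4a5 (SE; adjusted p = 0.000126) and 0.29 ± 0.07 for Col4a2 (SE; adjusted p = 0.000507). Col4a3 is listed without an adjusted p.

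RefSeq promoter windows were found for 27 of the 42 genes, 33 windows in all. A GC box (GGGCGG, both strands) was present in 12 of 16 basement membrane windows (75%) and 8 of 17 fibrillar and interstitial windows (47.1%), against 35.7% of all 32851 windows of the same length. A CCAAT box (CCAAT, both strands) was present in 37.5% of basement membrane windows, 17.6% of fibrillar windows and 37.4% of all windows. A TATA box (TATAAA, both strands) was found in 0 of 16 basement membrane windows, 17.6% of fibrillar windows and 13.6% of all windows. The median GC content was 63.3% in basement membrane windows, 56.7% in fibrillar windows and 52.7% over all windows.

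Markers of cells of the meninges and vessels, and of macrophages and microglia, were summed in the same libraries. The 18 markers of meningeal fibroblasts summed to 1192 to 1402 TPM in mutants, against 972 to 1149 TPM in wild type, and every mutant library was above every wild-type library. None of the 18 was at 0, and 16 had a log2 fold change above 0 on genotype alone (median 0.20), against 50.3% of all genes tested. In the set-adjusted fit 3 rose, where 0.239% of all genes tested were called higher. Those 3 were Aldh1a2, for a retinoic acid synthesis enzyme (0.48 ± 0.06, SE; edgeR adjusted p = 0.011), Igf2, a growth factor (0.57 ± 0.09, SE; edgeR adjusted p = 0.0295), and Ptgds, for prostaglandin D synthase (0.39 ± 0.08, SE; edgeR adjusted p = 0.0422). None of the 3 passed on genotype alone, with log2 fold changes of 0.29, 0.36 and 0.33 for Aldh1a2, Igf2 and Ptgds and edgeR adjusted p-values of 0.344, 0.362 and 0.188. The 16 endothelial markers summed to 335 to 411 TPM in mutants, against 316 to 357 TPM in wild type, with 0 called in either fit and the smallest p in Flt1. In the set-adjusted fit, 10 of these 16 had an unadjusted p under 0.05 and were higher in mutants, and 0 were lower. Over all genes tested these shares were 6.48% and 7.21%. Higher were also 10 of 18 meningeal, 6 of 14 mural and 6 of 13 macrophage and microglia markers, and 0 were lower. The 14 markers of pericytes and smooth muscle summed to 141 to 187 TPM in mutants, against 137 to 158 TPM in wild type, and Acta2, for smooth muscle actin, rose in the set-adjusted fit (0.89 ± 0.17, SE; edgeR adjusted p = 0.0422) but did not pass on genotype alone (0.70 ± 0.21, SE; edgeR adjusted p = 0.244). Acta2 was at 3.16, 3.65, 3.67 and 6.32 CPM in mutants, against 2.64, 2.41, 2.35 and 2.92 CPM in wild type. Every mutant library was above every wild-type library, a pattern that 2.95% of all genes tested showed. Mutant replicate 4 stood far above the other libraries. The 13 markers of border macrophages and microglia summed to 149.9 to 168 TPM in mutants, against 126 to 147 TPM in wild type, without overlap. F13a1, a macrophage transglutaminase, rose in the set-adjusted fit (0.69 ± 0.08, SE; edgeR adjusted p = 0.00689) but did not pass on genotype alone (0.24 ± 0.25, SE; edgeR adjusted p = 0.657). F13a1 was at 13.2, 14.1, 14.9 and 25.3 CPM in mutants, against 8.45, 14.1, 17.2 and 17.1 CPM in wild type, and only mutant replicate 4 was above the wild-type range. In mutant replicate 4 the meningeal, endothelial and mural sums were the highest of the 8 libraries, as for both matrix classes. The same held for markers of choroid plexus (1357 TPM) and of skeletal muscle and skin (33.9 TPM, against at most 33.3 TPM in wild type). Sums for macrophages and microglia, red blood cells, bone and cartilage, cortical neurons and astroglia were highest in other libraries. The part of cell composition in the matrix values was not tested.

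**Figure D4:**
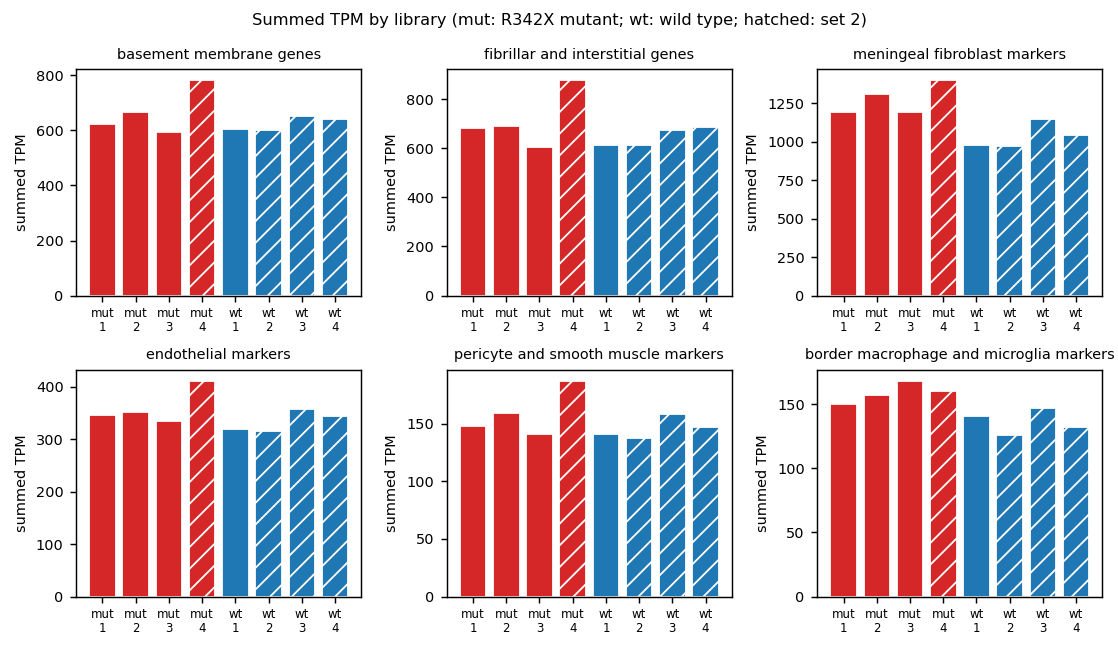
Summed TPM in each library for the 21 basement membrane genes, the 21 fibrillar and interstitial genes and 4 lists of cell type markers, with R342X mutants in red on the left, wild type in blue on the right and set 2 hatched. Meningeal fibroblast markers lie between 1192 and 1402 TPM in mutants, above the 972 to 1149 TPM of wild type, while in both matrix classes mutant replicates 1 and 3 lie below the highest wild-type library and mutant replicate 4 is the highest of all.

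Markers of other tissues and cells were summed in the same way. The 14 bone and cartilage markers summed to 34.3 to 45.5 TPM in mutants, against 32.6 to 40.0 TPM in wild type (Bglap2, for osteocalcin 2, at 0 in all libraries; smallest p in Sp7). The 13 markers of skeletal muscle and skin summed to 25.0 to 33.9 TPM in mutants, against 26.8 to 33.3 TPM in wild type (smallest p in Mylpf). Choroid plexus markers summed to 973 to 1357 TPM in mutants, against 835 to 1243 TPM in wild type (smallest p in Prlr), and red blood cell markers to 4141 to 8056 TPM in mutants, against 2432 to 10450 TPM in wild type (smallest p in Hbb-bt). No member of these 4 lists was called in either fit. On genotype alone the log2 fold change lay above 0 for 9 of 9 choroid plexus and 3 of 6 red blood cell markers tested. It did so for 5 of 9 bone and cartilage and 3 of 8 muscle and skin markers. In the set-adjusted fit these counts were 9 of 9, 6 of 6, 6 of 9 and 6 of 8, with medians of 0.13, 0.67, 0.12 and 0.09. Over all genes tested, 50.3% lay above 0 on genotype alone and 48.5% in the set-adjusted fit. The 8 markers of astroglia and radial glia summed to 1976 to 2087 TPM in mutants, against 1927 to 2170 TPM in wild type, with 0 called and the smallest p in Nes. Of the cortical neuron markers, whose sums were lower in every mutant library than in any wild-type library, Neurod6 fell in the set-adjusted fit (-0.32 ± 0.06, SE; edgeR adjusted p = 0.0305) but did not pass on genotype alone (-0.265 ± 0.06, SE; edgeR adjusted p = 0.18).

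Genes that process, bind or cut matrix were counted in the same fits, where 0.239% of all genes tested were called higher and 0.363% lower with the set included. Of 31 tested genes for collagen processing and crosslinking, 0 were called in either fit, and 18 had a log2 fold change above 0 in the set-adjusted fit. The smallest p on genotype alone was that of Tgm2, for a crosslinking transglutaminase (log2 fold change 0.59 ± 0.12, SE; edgeR adjusted p = 0.159, and 0.0707 with the set included). Of 59 other matrix proteins, 1 fell and 0 rose in the set-adjusted fit. It was Col9a3, a chain of type IX collagen, at 42.7, 41.98, 44.5 and 47.6 CPM in mutants, against 54.7, 51.7, 56.3 and 59.7 CPM in wild type (log2 fold change -0.29 ± 0.06, SE; edgeR adjusted p = 0.0384). Its groups did not overlap, and on genotype alone it did not pass (-0.33 ± 0.06, SE; edgeR adjusted p = 0.141). Of 32 matrix receptors 0 were called, with the smallest p in Cd44, the hyaluronan receptor (0.47 ± 0.14, SE; edgeR adjusted p = 0.247 on genotype alone, and 0.193 with the set included). Of 29 tested matrix proteases and inhibitors, 1 rose in the set-adjusted fit, Plat, for tissue plasminogen activator (0.21 ± 0.04, SE; edgeR adjusted p = 0.0465, and 0.441 on genotype alone), and Mmp3 was at 0 in all libraries. Of 16 genes of the TGF-beta and connective tissue response 0 were called in either fit. At an unadjusted p under 0.05 in the set-adjusted fit, 5 of 31 processing genes, 14 of 59 other matrix proteins, 8 of 32 receptors, 8 of 29 proteases and inhibitors and 5 of 16 TGF-beta response genes were higher in mutants, against 6.48% of all genes tested.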

How the data were processed

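Per the file headers, each of the 8 deposited library files holds, by transcript, an estimated count that Salmon assigned by its model and a TPM value. The authors' comparison table holds a signal level (mean normalized count), log2 fold changes, their errors, p-values and adjusted p-values, per the file headers. The submitters' processing notes name Salmon 0.12.0, DESeq2 and the GRCm38 build, and no source used here gives read filters, bias options or the use of strand. RNA came from TRIzol extraction and libraries had dual-index adapters, per the labels.

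Estimated counts and TPM were summed by gene over 136202 transcripts, and summed counts were rounded. All 42 matrix genes were among the 20097 of 53392 genes kept by edgeR's filterByExpr at its defaults. The test was the two-sided quasi-likelihood F test of edgeR 4.0.16 (R 4.3.3, TMM) with Benjamini-Hochberg adjustment over all genes tested and a threshold of 0.05, run on genotype alone and with the library set as a further term. Sets were read from the sign of the first principal component (log2 CPM with a prior count of 2), which was computed from all tested genes, matrix genes included. SEs follow from fold change and F statistic. Alternatives were DESeq2 1.42.0, limma-voom (limma 3.58.1), other filters and scalings, length offsets, a replicate block, protein-coding transcripts only and leaving out each library. Tests were checked on simulated counts. Coordinates come from GENCODE M21, promoter windows from RefSeq (GRCm38.p6).

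The 42 genes, the lists and the set-adjusted fit were chosen with earlier results of these data known. Values in every library are given, per class, for the 5 genes with the highest TPM, the 4 with the smallest p on genotype alone, their type IV collagen partners and called genes. Col6a2 was added after its values were seen, as were the families. In 15 other lists, called genes or the gene with the smallest p are named (1 gene so chosen is not reported here), and 4 symbols were matched through RefSeq synonyms.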

Additional observations from a re-analysis of the deposited data

Results flagged for a closer look

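Among 84 groups of 4 libraries (42 genes in 2 genotypes), 8 held a library far from the other 3 (the gap to the next library, over the range of the 4, was above Dixon's critical value). Chance flags about 1 group in 20. In 7 of the 8 it was mutant replicate 4, on the high side. Lama4 was at 47.3 CPM there, against 33.8 to 35.5 CPM in the other mutants, and Lamb1 at 104 CPM, against 81.7 to 84.7 CPM. Col6a1 was at 51.5 CPM, against 37.3 to 38.5 CPM, and Col6a2 at 40.5 CPM, against 27.9 to 29.3 CPM. Fn1 was at 321 CPM, against 187 to 203 CPM, Fbn1 at 59.3 CPM, against 44.2 to 46.0 CPM, and Dcn at 38.1 CPM, against 24.4 to 26.7 CPM. The eighth was Fn1 in wild-type replicate 1, at 194 CPM, against 228 to 232 CPM in the other wild-type libraries. The genes share libraries and are not independent. Mutant replicate 4 is the only mutant library of set 2 and wild-type replicate 1 the only wild-type library of set 1.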

How the results depend on the processing

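The number of genes called on genotype alone (4) was 401 with DESeq2, 13 without a filter, 20 with the replicate block, 121 in the set-adjusted fit, and 3 to 699 when single libraries were left out, with 699 when mutant replicate 4 was dropped and 14 when wild-type replicate 1 was. Matrix genes called numbered 3 in the set-adjusted fit and 0 to 1 when single libraries were left out. In the set-adjusted fit they numbered 14 with DESeq2 (497 over all genes), 0 with protein-coding transcripts only (26 over all genes) and 0 to 4 when libraries were left out (16 to 126 over all genes). Deviations from the group means correlated at 0.24, -0.03, -0.08 and 0.32 between same-numbered libraries. Differently numbered ones correlated at -0.45 to 0.20. Same-numbered libraries thus did not deviate together throughout, and the numbers were not taken as pairs. The replicate block called 0 matrix genes.

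Class medians kept their sign on genotype alone except without mutant replicate 4, and their difference stayed between -0.06 and 0.05. With single libraries left out, the log2 fold change on genotype alone ran from -0.037 to 0.18 for Col4a1, -0.105 to 0.024 for Lamb1, -0.058 to 0.11 for Lamc1, -0.0062 to 0.23 for Col1a2, -0.054 to 0.23 for Col3a1, -0.18 to 0.12 for Fn1 and -0.027 to 0.12 for Sparc. Lamb1 was also 0.072 in the set-adjusted fit, and Fn1 -0.004 with limma-voom. In the set-adjusted fit the ranges were -0.043 to 0.20 for Lamb1, -0.022 to 0.34 for Lamc1, -0.079 to 0.072 for Agrn (0.0024 with protein-coding transcripts only) and -0.27 to 0.066 for Fbln1. The causes were not tested. Of 474 alternative values for single genes, 426 kept their direction and their side of the threshold, 18 lost a call, 10 gained one and 20 changed sign. The stricter filter tested 39 of the 42 genes. Mutant libraries were shallower than wild-type ones.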
